A study of Mus musculus with 5 samples.

Results

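Transcripts of 10 genes that build the acylceramide lipids of the skin barrier and oxidise them were followed in keratinocytes of mouse back skin. The genes were Elovl4, Cyp4f39, Cers3, Pnpla1, Abhd5, Ugcg, Abca12, Alox12b, Aloxe3 and Sdr9c7, taken by gene symbol from a table of 56691 gene IDs. All 10 were found once in the table, and all 10 were among the 18583 genes with enough counts to be tested. The sorted group held 3 libraries of keratinocytes sorted for GFP, labelled as Lrig1 positive in both cell description and genotype and as epidermal stem cells (GFP replicates 1, 2 and 3). The other group held 2 libraries of basal keratinocytes of wild-type genotype, for which the whole population was taken without that sort (bulk replicates 1 and 2). All mice were 28 days old, and the labels used here give neither the allele that carries GFP, nor its driver, nor the sorting gates. The question set by these groups is how Lrig1-positive keratinocytes differ from the basal population as a whole.

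Acylceramides are ceramides with a fatty acid of extreme length whose far end carries an esterified linoleate. Keratinocytes make them as they leave the basal layer, pack them into lamellar granules as glucosylated precursors and release them below the cornified layer. There the linoleate is oxidised by paired lipoxygenases, after which the lipid can be fixed to the protein envelope of the corneocyte. Loss of several of these enzymes in humans causes congenital ichthyosis, a disorder of a leaky, scaling skin. Lrig1, the label of the sorted cells, codes for a transmembrane inhibitor of EGF family receptors found in stem cells of the upper follicle.

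Total counts ran from 71410484 to 89080100 in the 3 GFP libraries and were 56829330 and 105887450 in the bulk libraries. Each member had at least 54 counts in every library. Markers of other cells differed between the groups, and their values are given here for all results that follow. The 25 suprabasal markers summed to 15772 to 21505 CPM in GFP libraries and to 31636 and 38574 CPM in bulk. CPM are counts scaled to the TMM-adjusted library size. Suprabasal transcripts were thus abundant in both groups, and more so in the population labelled basal. The 15 basal markers summed to 36319 to 44700 CPM in GFP libraries and to 23472 and 26763 CPM in bulk. The 18 hair matrix and inner root sheath markers summed to 80.0 to 81.4 CPM in GFP libraries, against 1926 and 3519 CPM in bulk, and the hair keratin genes Krt33b and Krt34 were at 0 in GFP replicate 2. The 15 sebaceous gland markers summed to 2790 to 4052 CPM in GFP libraries and to 2961 and 3484 CPM in bulk. Most of this was Krt79, also an upper follicle marker, with 2274 to 3503 CPM in GFP libraries and 2000 and 2314 CPM in bulk. GFP libraries lay below both bulk libraries for 7 of the 14 tested sebaceous markers (18.5% of all tested genes) and above both for 0. Melanocyte, immune, dermal and red cell markers summed to 10.7 to 17.4, 25.1 to 52.2, 10.2 to 170 and 1.24 to 7.98 CPM in GFP libraries, against 121 to 289, 345 to 351, 171 to 218 and 194 to 202 CPM in bulk. The dermal sum was 170, 36.8 and 10.2 CPM in GFP replicates 1, 2 and 3, so that GFP replicate 1 was close to bulk replicate 2 (171 CPM). By edgeR 18 of 18 hair, 10 of 10 immune, 7 of 8 melanocyte, 5 of 5 red cell, 4 of 9 dermal and 4 of 14 tested sebaceous markers were lower in sorted cells. Over all tested genes 5.14% were lower by the same test. No basal marker was called by edgeR (0 of 15), 6 were higher at an unadjusted p under 0.05, and 2 were called higher by the DESeq2 Wald test and 0 by limma-voom. Of 9 upper follicle markers 1, Fst, was called higher. Lrig1 itself had 210, 226 and 213 CPM in GFP replicates 1, 2 and 3, against 163 and 155 CPM in bulk replicates 1 and 2. Lrig1 was not called (log2 fold change 0.44 ± 0.18, edgeR adjusted p = 0.292). The part of these markers in the results was not tested, and in such bulk samples fewer cells of a type and less RNA per cell cannot be told apart. GFP replicate 3 had 53714 counts of the X-inactivation transcript Xist, against 0 to 8 in the other libraries, so the sorted group alone held a library of this pattern.

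In sorted cells 5 of the 10 genes fell and none rose. The 2 largest falls lay in the oxidation steps: Sdr9c7 was at 3.84% and Alox12b at 14.8% of the bulk mean. Elovl4, Cyp4f39 and Ugcg fell to between 39.0% and 50.6% of the bulk mean. Cers3 and Abhd5 were close to their bulk levels, with groups that overlapped. Calls were made with edgeR's quasi-likelihood test, fitted to all tested genes, at a Benjamini-Hochberg adjusted p under 0.05. By this rule 5.14% of all tested genes were called lower and 0.145% higher, or 5.28% in either direction. No member was higher at an unadjusted p under 0.05 (0 of 10), and 0 were called higher by the DESeq2 Wald test or limma-voom. Without GFP replicate 1, bulk replicate 1 or bulk replicate 2, 3, 2 and 3 members were called. The median log2 fold change was -0.98 over the 10 genes and 0.05 over all tested genes. All GFP libraries lay below both bulk libraries for 8 of the 10 genes, which was so for 18.5% of all tested genes.

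**Figure D1:**
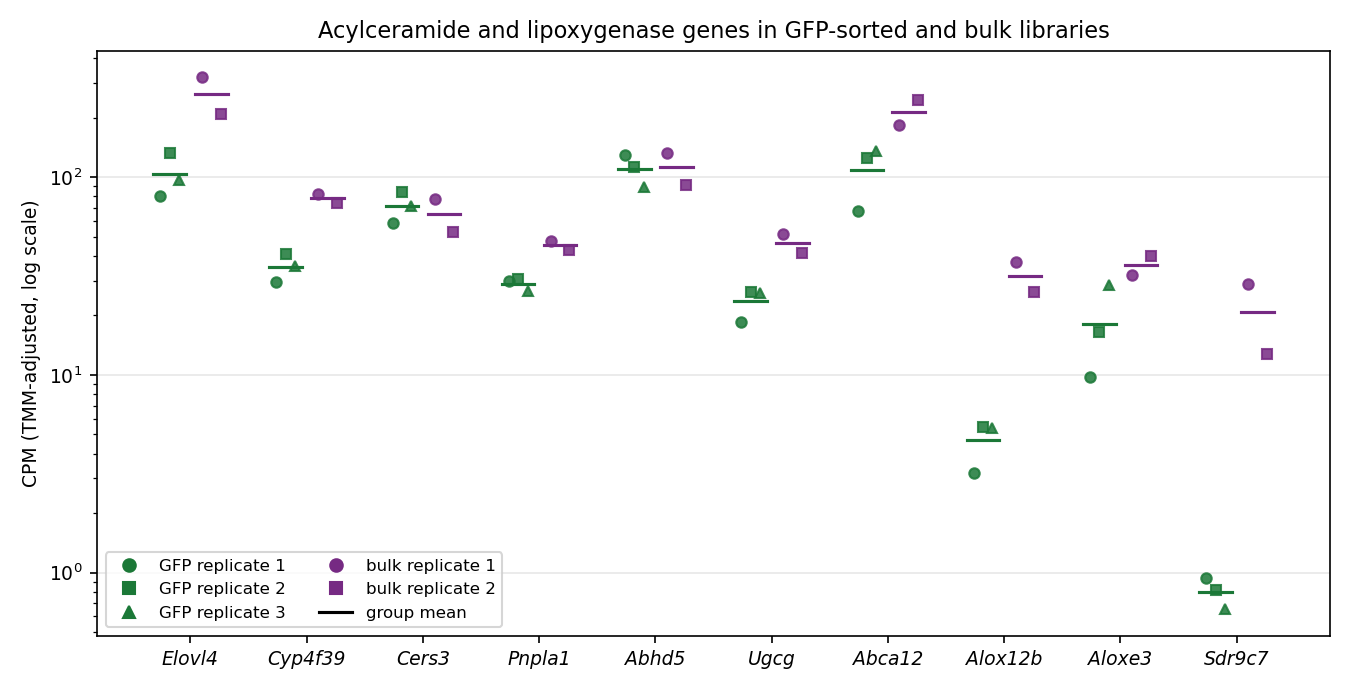
TMM-adjusted CPM on a log axis for each of the 10 genes, in pathway order, with 1 symbol per library (GFP left, bulk right) and a bar at the group mean. The 3 GFP libraries lie below both bulk libraries for every gene except Cers3 and Abhd5, and the gap is widest for Sdr9c7.

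The sequences around the transcription starts of the 2 genes that fell most and of the 2 whose groups overlapped are shown because they mark the extremes of the set. They span 250 bases before the start and 50 after it, and come from RefSeq on build GRCm38.p6, which is not the build of the counts. Promoters of 9 of the 10 members were matched by symbol, and Aloxe3 was not. Capitals mark matches on either strand to any of 4 motifs. The TATA box was searched as TATAAA. The AP-1 motif of Fos and Jun factors was searched as TGANTCA. The motif of Grainyhead-like factors was searched as AACNGGTT. The motif of Klf factors was searched as GGGNGTG.
Sdr9c7 (chr10:127898285-127898584, plus strand): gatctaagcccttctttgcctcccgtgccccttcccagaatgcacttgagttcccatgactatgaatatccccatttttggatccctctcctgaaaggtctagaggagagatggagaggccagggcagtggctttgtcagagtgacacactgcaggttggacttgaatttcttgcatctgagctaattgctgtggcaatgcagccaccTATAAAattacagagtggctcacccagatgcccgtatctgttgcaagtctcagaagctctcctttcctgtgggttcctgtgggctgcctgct
Alox12b (chr11:69156822-69157121, plus strand): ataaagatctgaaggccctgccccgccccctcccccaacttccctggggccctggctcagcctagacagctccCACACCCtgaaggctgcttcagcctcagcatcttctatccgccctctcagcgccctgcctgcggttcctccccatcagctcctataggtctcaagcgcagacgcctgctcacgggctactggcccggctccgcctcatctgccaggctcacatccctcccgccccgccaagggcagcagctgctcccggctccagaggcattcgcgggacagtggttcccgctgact
Cers3 (chr7:66743254-66743553, plus strand): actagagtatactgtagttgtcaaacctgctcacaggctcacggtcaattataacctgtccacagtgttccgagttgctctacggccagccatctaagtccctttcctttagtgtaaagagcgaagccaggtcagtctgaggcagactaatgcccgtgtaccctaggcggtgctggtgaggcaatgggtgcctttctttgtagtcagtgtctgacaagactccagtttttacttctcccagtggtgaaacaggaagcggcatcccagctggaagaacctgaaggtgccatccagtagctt
Abhd5 (chr9:122351366-122351665, plus strand): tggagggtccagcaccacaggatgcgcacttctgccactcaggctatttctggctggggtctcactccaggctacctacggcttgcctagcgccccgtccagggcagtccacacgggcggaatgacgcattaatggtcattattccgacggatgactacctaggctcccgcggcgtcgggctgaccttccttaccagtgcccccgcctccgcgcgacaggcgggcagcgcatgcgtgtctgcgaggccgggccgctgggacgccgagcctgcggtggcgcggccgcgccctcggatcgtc

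The Sdr9c7 window held the only TATAAA among the 9 members matched, and these letters were in 13.6% of 32851 mouse promoters of the same length. The Alox12b window held GGGNGTG on the reverse strand, a motif found in 4 of the 9 members and in 29.2% of all promoters. None of the 4 motifs was in the windows of Cers3 and Abhd5. The AP-1 and Grainyhead-like motifs were in none of the 9 windows (0 matches), against 7.81% and 2.09% of all promoters. No 2 matches overlapped in the members' windows. These are matches of letters in a short window and not evidence of binding.

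The pathway begins with the fatty acid. Elovl4 (ENSMUSG00000032262.14) encodes the elongase that extends fatty acids to extreme length. It had 80.4, 133 and 96.5 CPM in GFP replicates 1, 2 and 3, against 321 and 209 CPM in bulk replicates 1 and 2. GFP replicate 2 was the highest of the sorted libraries and still lay below bulk replicate 2, so the groups did not overlap. Elovl4 fell by 1.36 ± 0.28 on the log2 scale (edgeR adjusted p = 0.0296, n = 3 and 2). The call did not hold without GFP replicate 1, GFP replicate 3 or bulk replicate 1 (edgeR adjusted p = 0.0769, 0.05003 and 0.215).

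Cyp4f39 (ENSMUSG00000061126.6), the mouse counterpart of human CYP4F22, hydroxylates the far end of that fatty acid and so creates the place for the linoleate. Its levels were 29.5, 41.0 and 35.6 CPM in GFP replicates 1, 2 and 3, against 82.5 and 73.8 CPM in bulk replicates 1 and 2. The 2 bulk libraries were close together and clearly above all sorted ones. Cyp4f39 fell by 1.14 ± 0.20 on the log2 scale (edgeR adjusted p = 0.0148). It was not called without bulk replicate 1 or bulk replicate 2 (edgeR adjusted p = 0.115 and 0.0616), fits that leave 1 bulk library.

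Cers3 (ENSMUSG00000030510.12), the ceramide synthase that joins these long fatty acids to the sphingoid base, did not follow. It had 58.8, 84.1 and 72.0 CPM in GFP replicates 1, 2 and 3, against 78.0 and 52.6 CPM in bulk replicates 1 and 2. The highest and the lowest of the 5 values belonged to GFP replicate 2 and bulk replicate 2, with the others in between. Its log2 fold change was 0.13 ± 0.24 (edgeR adjusted p = 0.837), and it turned to -0.14 without bulk replicate 2.

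Pnpla1 (ENSMUSG00000043286.13) encodes the transacylase that places linoleate on the ceramide, the step that completes an acylceramide. It had 29.7, 30.7 and 26.4 CPM in GFP replicates 1, 2 and 3, against 47.4 and 43.1 CPM in bulk replicates 1 and 2. Libraries of 1 group agreed closely and the groups were apart. The log2 fold change of -0.64 ± 0.18 missed the threshold in edgeR (adjusted p = 0.0992). It passed in the DESeq2 Wald test (adjusted p = 0.0269) and in edgeR with library size alone (adjusted p = 0.0417).

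Abhd5 (ENSMUSG00000032540.17) encodes a co-activator of Pnpla1 and of the triglyceride lipase encoded by Pnpla2. It had 129, 113 and 89.2 CPM in GFP replicates 1, 2 and 3, against 133 and 91.9 CPM in bulk replicates 1 and 2. The groups overlapped, with the highest value in bulk replicate 1 and the lowest in GFP replicate 3. The log2 fold change was -0.03 ± 0.24 (edgeR adjusted p = 0.970) and positive without GFP replicate 3 or bulk replicate 1 (0.10 and 0.27). In GENCODE M21, exons of Abhd5 and of Pnpla1 overlap those of an antisense gene, which had 68 to 129 counts for Abhd5 and 3 to 11 for Pnpla1. Whether reads were counted by strand is not stated in the labels used here.

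Glucosylation and packing follow. Ugcg (ENSMUSG00000028381.9) encodes the glucosylceramide synthase, which caps ceramides with glucose for storage in lamellar granules. It had 18.6, 26.4 and 25.8 CPM in GFP replicates 1, 2 and 3, against 51.9 and 41.5 CPM in bulk replicates 1 and 2. All sorted libraries were lower than both bulk libraries. Ugcg fell by 0.98 ± 0.22 on the log2 scale (edgeR adjusted p = 0.0442). Without GFP replicate 1, GFP replicate 2, bulk replicate 1 or bulk replicate 2 it was not called (edgeR adjusted p = 0.107, 0.0841, 0.273 and 0.109).

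Abca12 (ENSMUSG00000050296.15) encodes the transporter that loads these lipids into lamellar granules. It had 67.2, 125 and 136 CPM in GFP replicates 1, 2 and 3, against 185 and 246 CPM in bulk replicates 1 and 2. GFP replicate 1 stood well below the other sorted libraries, and none reached bulk. Its log2 fold change was -0.98 ± 0.31, the same size as that of Ugcg but with a wider error, and was not called (edgeR adjusted p = 0.153).

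Alox12b (ENSMUSG00000032807.6) encodes the lipoxygenase that acts first on the linoleate of acylceramides. It had 3.20, 5.47 and 5.42 CPM in GFP replicates 1, 2 and 3, against 37.1 and 26.3 CPM in bulk replicates 1 and 2. The groups were separated by a wide gap. Alox12b fell by 2.75 ± 0.29 on the log2 scale (edgeR adjusted p = 0.00148). It was called in all 16 alternatives, with log2 fold changes from -2.99 to -2.48.

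Aloxe3 (ENSMUSG00000020892.11) encodes the partner enzyme that turns the product of Alox12b into an epoxy alcohol. It had 9.76, 16.5 and 28.4 CPM in GFP replicates 1, 2 and 3, against 32.2 and 39.9 CPM in bulk replicates 1 and 2. GFP replicate 3 lay nearly as high as bulk replicate 1, so that the groups barely separated. The log2 fold change was -0.99 ± 0.39 and was not called (edgeR adjusted p = 0.268). Without GFP replicate 3, the library with Xist, it was -1.47 ± 0.28 and was called (edgeR adjusted p = 0.0267). In the other 4 fits that leave out a library it was not called, with log2 fold changes from -0.69 (without GFP replicate 1) to -1.13 (without bulk replicate 1) and edgeR adjusted p from 0.359 to 0.911.

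Sdr9c7 (ENSMUSG00000040127.14) encodes the dehydrogenase that oxidises the epoxy alcohol further, the last oxidation before the lipid is bound to protein. It had 0.937, 0.814 and 0.653 CPM in GFP replicates 1, 2 and 3, from 74, 54 and 61 counts, against 28.9 and 12.8 CPM in bulk replicates 1 and 2, from 1729 and 1428 counts. The bulk libraries differed from each other by more than the sorted ones did, and both were far above them. Sdr9c7 fell by 4.70 ± 0.39 on the log2 scale (edgeR adjusted p = 5.04e-04). The call was made in all 16 alternatives, with log2 fold changes from -5.18 to -3.99, the smallest fall being that without bulk replicate 1.

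**Figure D2:**
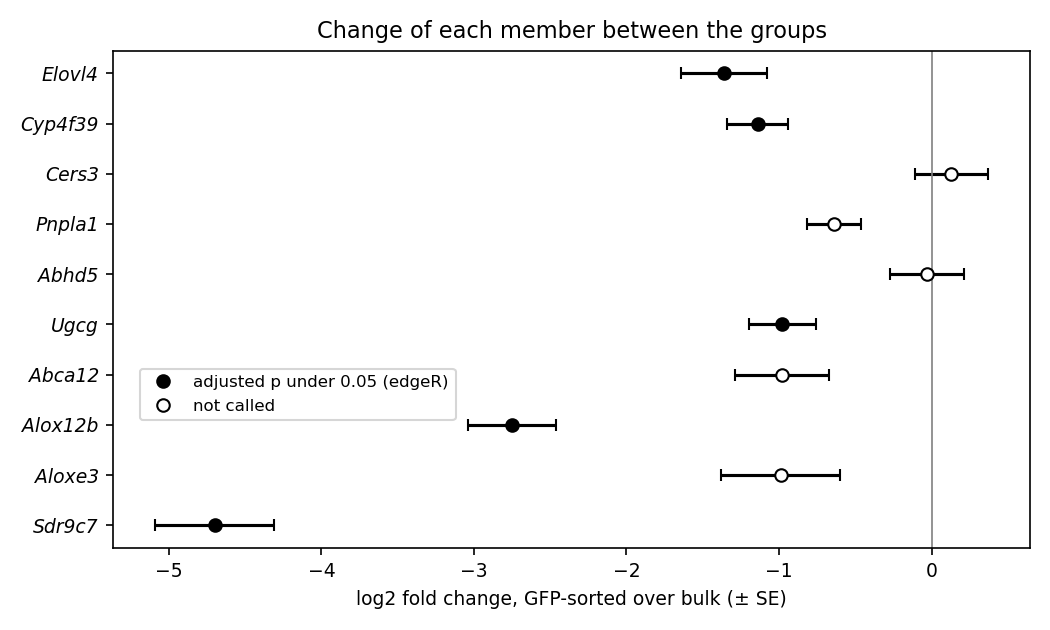
Log2 fold change of GFP-sorted over bulk cells with its SE for each gene, from the edgeR fit with 3 and 2 libraries; filled points were called at an adjusted p under 0.05. Sdr9c7 at -4.70 and Alox12b at -2.75 stand apart from the other 8 genes, which lie between -1.36 and 0.13.

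The 10 genes also varied within the groups. Each gene's log2 CPM was centred on its own mean over the 5 libraries. GFP replicate 1 was the lowest of the 5 libraries for Elovl4, Cyp4f39, Ugcg, Abca12, Alox12b and Aloxe3. That library also had the highest sum of dermal markers among the sorted ones, and a link was not tested. Averaged over the 10 genes, the centred value was -0.80, -0.37 and -0.46 in GFP replicates 1, 2 and 3, and 0.97 and 0.64 in bulk replicates 1 and 2. Bulk replicate 1 was above bulk replicate 2 for 8 genes, while Abca12 and Aloxe3 had the opposite order. Aloxe3 was the only gene of the 8 non-overlapping ones with a positive centred value in a sorted library, 0.33 in GFP replicate 3. Sdr9c7 had its lowest value, -2.09, in that same library.

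**Figure D3:**
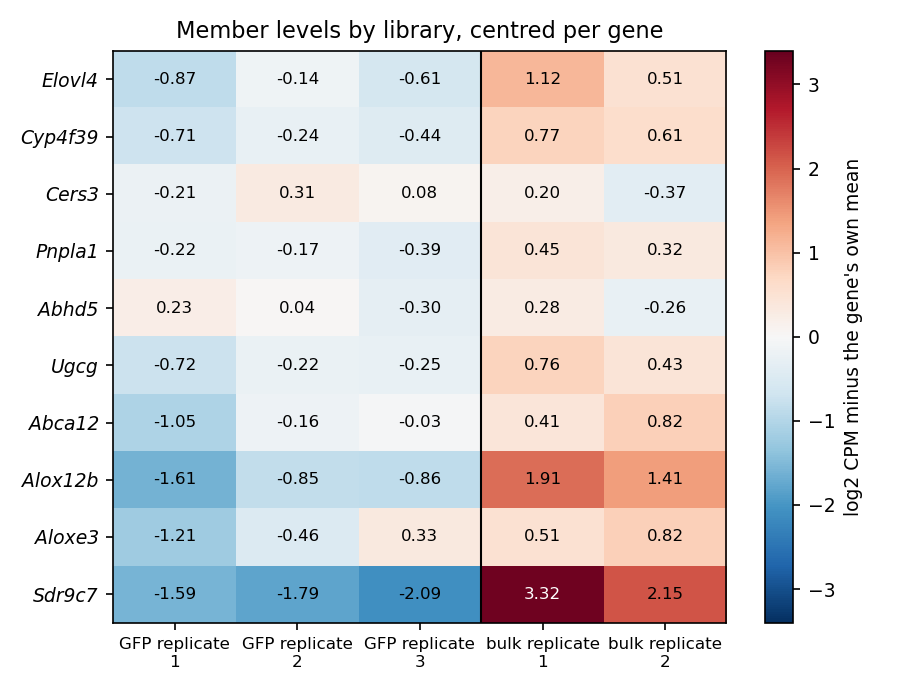
Log2 CPM of each gene minus its own mean over the 5 libraries, with GFP libraries left of the line and bulk libraries right of it. Sdr9c7 spans -2.09 to 3.32, while Cers3, Pnpla1 and Abhd5 stay between -0.39 and 0.45.

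Levels of different genes were compared per length, as RPKM over the longest M21 transcript. In sorted cells Abhd5 (35.0 ± 6.39 RPKM, mean ± SD, n = 3) and Elovl4 (34.5 ± 9.04 RPKM) were at the top of the order and did not differ beyond their spread. Cers3 followed at 22.0 ± 3.90 RPKM, and Cyp4f39 and Abca12 overlapped at 13.5 ± 2.20 and 12.0 ± 4.05 RPKM. Pnpla1 and Ugcg, at 6.46 ± 0.499 and 5.89 ± 1.08 RPKM, also overlapped. Aloxe3 (3.89 ± 2.01 RPKM), Alox12b (1.93 ± 0.533 RPKM) and Sdr9c7 (0.280 ± 0.0496 RPKM) were at the bottom. The Aloxe3 libraries overlapped those of Pnpla1, Ugcg and Alox12b, and Sdr9c7 lay apart below. In bulk, Elovl4 led with 88.3 ± 26.2 RPKM (n = 2), clear of all others. Abhd5 (35.7 ± 9.31 RPKM) overlapped Cyp4f39 (29.9 ± 2.37 RPKM), and Abca12 (23.6 ± 4.72 RPKM) overlapped Cers3 (20.1 ± 5.51 RPKM). Alox12b (13.0 ± 3.14 RPKM), Ugcg (11.6 ± 1.83), Pnpla1 (10.1 ± 0.675), Aloxe3 (7.70 ± 1.16) and Sdr9c7 (7.27 ± 3.97) formed the lower part of that order. There Alox12b overlapped Ugcg, Ugcg overlapped Pnpla1, and Sdr9c7 overlapped both Aloxe3 and Pnpla1.

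Transcripts of successive steps stood in different proportions in the 2 populations. Ratios of RPKM within a library do not depend on library scaling, and these pairs were chosen after their values were seen, so they are given without a test. Alox12b over Aloxe3 was 0.632, 0.641 and 0.368 in GFP replicates 1, 2 and 3, against 2.22 and 1.27 in bulk replicates 1 and 2. By RPKM the first lipoxygenase was the lower of the pair in every sorted library and the higher in both bulk libraries. Which of the pair is higher in bulk replicate 2 depends on the transcript lengths used. Before division by length, Alox12b and Aloxe3 had 37.1 and 32.2 CPM in bulk replicate 1, but 26.3 and 39.9 CPM in bulk replicate 2. Elovl4 over Cers3 was 1.48, 1.72 and 1.45 in GFP replicates 1, 2 and 3, against 4.45 and 4.31 in bulk replicates 1 and 2. Cyp4f39 over Cers3 was 0.623, 0.605 and 0.614 in the sorted libraries, against 1.31 and 1.74 in bulk. The transcripts for both enzymes that make the fatty acid were lower relative to that of the synthase in every sorted library than in either bulk library. Pnpla1 over Abhd5 was 0.162, 0.191 and 0.209 in sorted libraries and 0.250 and 0.330 in bulk, a smaller step. Sdr9c7 over Aloxe3 was 0.157, 0.0808 and 0.0376 in sorted libraries and 1.47 and 0.524 in bulk.

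**Figure D4:**
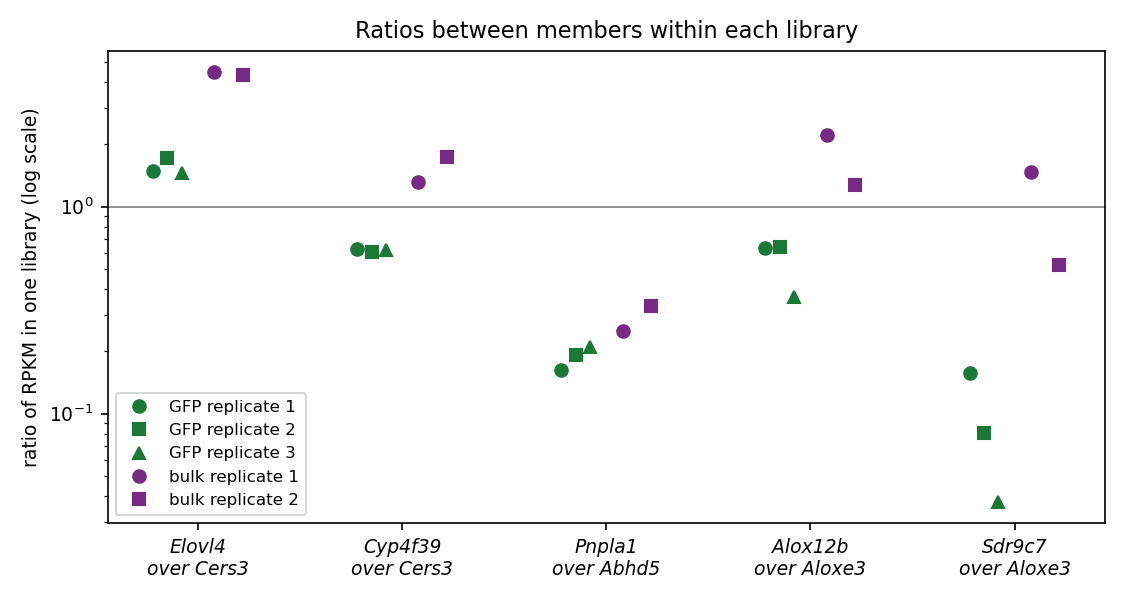
Ratio of RPKM between 2 genes of the pathway within each library, on a log axis, with GFP libraries left of bulk libraries and a line at 1. Alox12b over Aloxe3 and Cyp4f39 over Cers3 lie below 1 in all 3 GFP libraries and above 1 in both bulk libraries. The place of a ratio against 1 depends on the transcript lengths used.

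The remaining lipoxygenase genes of skin and blood cells were read from a list of 6, which also holds the partner gene Alox5ap. Of these 3 fell and none rose (50% called, against 5.28% of all tested genes), with a median log2 fold change of -2.12. None of the 6 was higher at an unadjusted p under 0.05 (0 by edgeR), and 0 were called higher by the DESeq2 Wald test or limma-voom. Alox8, the lipoxygenase gene next to Alox12b on mouse chromosome 11, had 0.557, 0.694 and 0.878 CPM in GFP replicates 1, 2 and 3, against 14.3 and 17.1 CPM in bulk replicates 1 and 2. It fell by 4.46 ± 0.29 on the log2 scale (edgeR adjusted p = 2.02e-04). Aloxe3, Alox12b and Alox8 follow each other as protein-coding genes in M21, with log2 fold changes of -0.99, -2.75 and -4.46 in that order. Alox12, of the second lipoxygenase group on chromosome 11, fell by 2.15 ± 0.30 (edgeR adjusted p = 0.00504), with 6.14, 12.9 and 10.2 CPM in sorted libraries and 45.0 and 41.3 CPM in bulk. Its neighbour Alox12e had 833, 698 and 459 CPM in sorted libraries and 782 and 831 CPM in bulk, and was not called (log2 fold change -0.28 ± 0.29, edgeR adjusted p = 0.693). Alox15, the third of that group, had 0.747 to 0.986 CPM in sorted libraries and 0.752 and 0.852 CPM in bulk, with a log2 fold change of 0.12 ± 0.37 (edgeR adjusted p = 0.906). Alox5, which makes leukotriene precursors in leukocytes, fell by 3.43 ± 0.48 (edgeR adjusted p = 0.00506), and its partner gene Alox5ap had a log2 fold change of -2.10 ± 0.55 (edgeR adjusted p = 0.0801). Without GFP replicate 1 the log2 fold changes were -4.02 for Alox5 and -2.82 for Alox5ap, which was called in that fit alone of the 5 that leave out a library. Alox8, Alox12 and Alox5 were called in all 5. All 10 immune markers fell as well, and a link to these falls was not tested.

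Of 65 further genes of fatty acid elongation, sphingolipid metabolism and the lipid envelope, 61 were tested, 10 fell and 1 rose (18% called, against 5.28% of all tested genes), with a median log2 fold change of -0.11. Without GFP replicate 2, bulk replicate 1 or bulk replicate 2, 4, 2 and 5 of them were called. None of the 10 tested elongation genes other than Elovl4 or of the 5 ceramide synthase genes other than Cers3 was called, which at 5.28% over all tested genes says little for lists this short. Elongation genes had log2 fold changes from -1.85 (Elovl3) to 0.13, and ceramide synthase genes from -0.88 (Cers4) to 0.44 (Cers2). Of 7 further Cyp4f genes 3 were tested and none was called, with log2 fold changes from 0.08 to 0.29. GFP libraries lay above both bulk libraries for 5 of the 61 tested genes and below both for 25. Over all tested genes this was so for 14.6% and 18.5%. The 5 included Cers2 and Cers5, which make ceramides of other chain lengths. Neither was called (edgeR adjusted p = 0.2825 and 0.2758), and both are named in addition to the genes of smallest p. Among 12 genes of the sphingoid base, with the fatty acid hydroxylase gene Fa2h counted among them, 2 fell. These were Sptssb, a small subunit of serine palmitoyltransferase (0.165, 0.106 and 0.0107 CPM in sorted libraries, 2.68 and 1.54 CPM in bulk), and Fa2h, the fatty acid hydroxylase for ceramides (6.70, 4.36 and 3.49 CPM against 21.6 and 11.2 CPM in bulk). Sptssb had only 13, 7 and 1 counts in GFP replicates 1, 2 and 3, against 160 and 172 in bulk replicates 1 and 2. It passed the filter on low counts through the bulk libraries, and the size of its fall rests on these few counts. Sptssb had a log2 fold change of -4.50 (-5.26 without GFP replicate 1), and was not called without bulk replicate 1. Fa2h was not called without bulk replicate 1 or GFP replicate 2.

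Of 16 genes of acyl activation, lipid droplets and envelope 5 fell, where 5.14% of all tested genes were called lower. Tgm1, the transglutaminase that cross-links the cornified envelope, had 13.0, 15.3 and 16.6 CPM in GFP replicates 1, 2 and 3, against 57.2 and 55.8 CPM in bulk replicates 1 and 2, and fell by 1.91 ± 0.19 on the log2 scale (edgeR adjusted p = 0.00104). Ephx3, an epoxide hydrolase that can act on epoxy alcohols of the lipoxygenase pathway, fell by 1.15 on that scale (edgeR adjusted p = 0.0186). The others were Dgat2, Sult2b1 and Slc27a4, for triglyceride synthesis, cholesterol sulphation and fatty acid activation, with log2 fold changes of -1.42, -0.83 and -0.80. Ephx3 and Sult2b1 were called in 1 of the 5 fits that leave out a library, Slc27a4 in 0 and Dgat2 in 4. Nipal4, an ichthyosis gene of the same layer, had a log2 fold change of -0.61 (edgeR adjusted p = 0.289), and was added to the genes named here after its value was seen.

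Of 15 genes of ceramide and sphingomyelin turnover 3 fell and 1 rose, where 5.14% of all tested genes were called lower and 0.145% higher. Smpd3, a neutral sphingomyelinase, had 0.139, 0.0603 and 0.257 CPM in GFP replicates 1, 2 and 3, against 6.30 and 4.79 CPM in bulk replicates 1 and 2. The sorted values rest on only 11, 4 and 24 counts. Smpd3 fell by 5.13 ± 0.52 on the log2 scale (edgeR adjusted p = 0.00115). Without GFP replicate 3 the log2 fold change was -5.75, and the call was made with any 1 library left out. Asah2, a neutral ceramidase gene, and Smpd1, the acid sphingomyelinase gene, had log2 fold changes of -1.48 and -0.85 (edgeR adjusted p = 0.0186 and 0.0478). The rise was in Sgms2, a sphingomyelin synthase that uses up ceramide, with 48.7, 69.0 and 52.8 CPM in sorted libraries and 29.2 CPM in each bulk library (log2 fold change 0.96 ± 0.21, edgeR adjusted p = 0.0410). Sgms2 was called in 2 of the 5 fits that leave out a library, Asah2 in 2 and Smpd1 in 0.

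**Figure D5:**
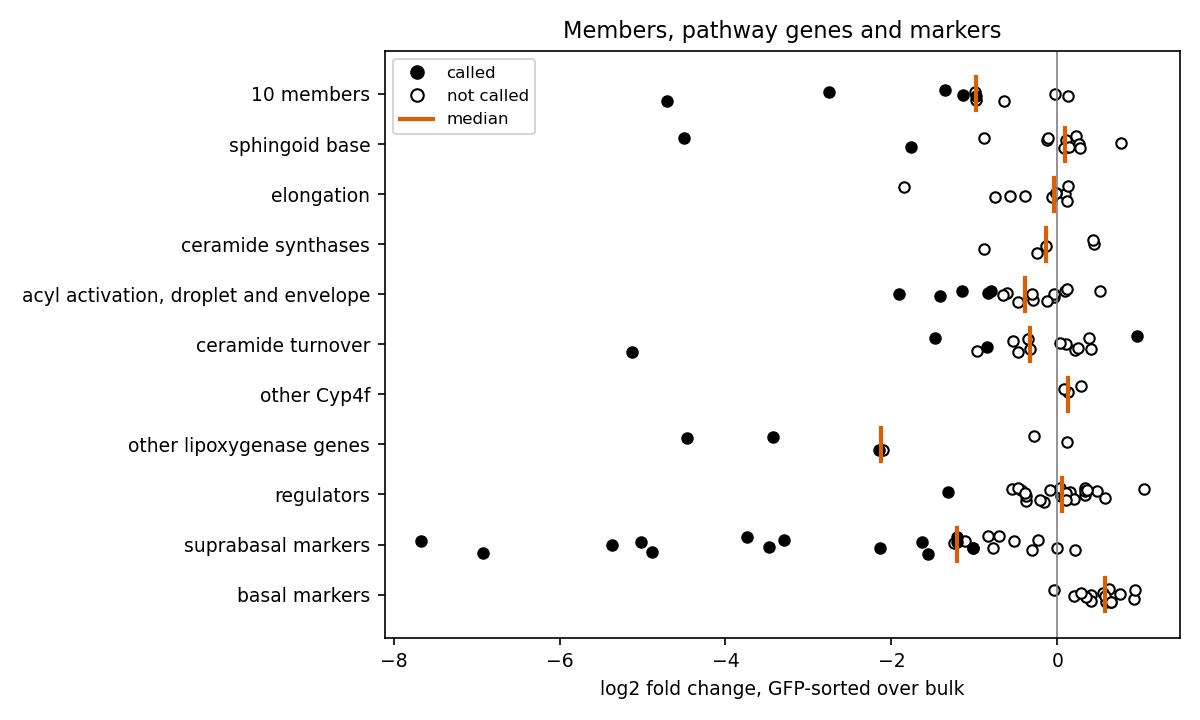
Log2 fold change of GFP-sorted over bulk cells for each tested gene of the listed groups, with filled points for called genes and a bar at each group's median. The medians of the members (-0.98) and of the suprabasal markers (-1.21) lie left of the line at no change, that of the regulators (0.06) near it and that of the basal markers (0.57) right of it.

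Transcription factors of terminal differentiation and nuclear receptors for barrier lipids were called about as often as genes in general. Of 24 tested regulators 1 fell and none rose (4.17% called, against 5.28% of all tested genes), with a median log2 fold change of 0.06. At an unadjusted p under 0.05, 2 were higher by edgeR, and 0 were called higher by the DESeq2 Wald test or limma-voom. The fall was in Foxn1, a factor of hair and epidermal differentiation that the hair marker list also holds (log2 fold change -1.32 ± 0.25, edgeR adjusted p = 0.0195), and it was not called without GFP replicate 2 or bulk replicate 2. Grhl1 had 175, 199 and 184 CPM in sorted libraries and 297 and 250 CPM in bulk (log2 fold change -0.55, edgeR adjusted p = 0.196). Its relative Grhl3, a factor required for barrier formation, had 209, 213 and 205 CPM in sorted libraries and 210 and 167 CPM in bulk. Klf4, another factor required for barrier formation, had 1613, 2499 and 2136 CPM in GFP replicates 1, 2 and 3, against 1484 and 1501 CPM in bulk, and was not called (edgeR adjusted p = 0.479). Cebpb, Ovol1, Gata3 and Ppard had log2 fold changes of 0.58, 1.04, -0.47 and -0.44, with edgeR adjusted p from 0.231 to 0.471. Grhl3 and Klf4 were added to the genes named here after their values were seen.

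Among suprabasal markers, 14 of 25 fell (56% called, against 5.28% of all tested genes). Their log2 fold changes ran from -7.67 (Hrnr) to 0.21 (Lgals7), against -4.70 to 0.13 for the members. The markers set beside members here were picked after their values were seen. Krt10 and Krt1, keratins of the first suprabasal cells, had -1.02 and -0.70 without a call (edgeR adjusted p = 0.174 and 0.313), a range that holds Ugcg, Abca12 and Aloxe3. Sdr9c7 lay near Cnfn and Lor, genes of the cornified envelope, at -5.02 and -5.37 (edgeR adjusted p = 5.3e-05 for each). Alox12b lay between the desmosome genes Dsc1 and Cdsn, at -2.14 and -3.74. The most similar patterns over the 5 libraries were sought among 8865 other genes whose log2 CPM averaged 3 or more. Genes without a symbol or with a predicted model name were left out. The measure was the root mean square difference of centred log2 CPM from the mean profile of the 10 genes. The members themselves lay at 0.11 (Cyp4f39) to 1.62 (Sdr9c7) from that mean. The mean profile therefore does not stand for each member. Among the 8 closest were Ankrd35, Ptpn21, C2cd2, Ceacam19, Fndc9, Asprv1 and Irak2, at differences of 0.068 to 0.145. Asprv1, a protease that processes filaggrin, is also on the suprabasal list.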

How the data were processed

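RNA was sequenced from 3 GFP-sorted and 2 bulk keratinocyte libraries. The deposited table holds raw whole-number counts per Ensembl gene ID, 1 column per library. Per the submitters' processing notes, STAR and build GRCm39 were used; the counting tool, annotation and use of strand are not given there. Symbols and transcript lengths came from GENCODE M21 (an earlier build) by unversioned ID: 52073 of 56691 IDs matched. No coordinates of the counted genes are given.

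Counts were filtered with filterByExpr (minimum count 10, minimum total 15), scaled by TMM and tested with edgeR 4.0.16 in R 4.3.3 (quasi-likelihood, group term, two-sided, Benjamini-Hochberg adjustment over 18583 genes, threshold 0.05, 3 residual degrees of freedom). Log2 fold changes are GFP over bulk, ± SE from the fitted F statistic. The test was tested on simulated data. Alternatives used DESeq2 1.42.0, limma 3.58.1, other scalings and filters, a length and GC offset, a replicate block and each library left out. Counts carry no molecular identifiers, so precision covers reads, not molecules. The labels do not say that libraries came from separate animals, so p-values measure the spread between these libraries, which may be technical.

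Members and lists were chosen with earlier results of these data known. All 10 members were named. From each pathway list the up to 6 genes with the smallest p were named, and any called gene needed to name a count of 5 or fewer. The ceramide list was divided into steps by function afterwards, and suprabasal genes named singly were picked after their values were seen. The 9 upper follicle markers, with 1 rise, served only as a check of the label. Of the 8 genes closest in pattern, 1 is not reported here.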

Additional observations from a re-analysis of the deposited data

How the results depend on the processing

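Of the 10 members, Alox12b and Sdr9c7 were called in all 16 alternatives. Cyp4f39 was called in 14, Elovl4 in 13 and Ugcg in 12, the losses being fits that leave out a library. Aloxe3, Pnpla1 and Abca12 were called in 4, 4 and 3, and Cers3 and Abhd5 in 0. Abhd5 changed direction, uncalled, with the replicate block (0.13, or 0.07 once corrected for length and GC as well) and without GFP replicate 3 or bulk replicate 1 (0.10 and 0.27; -0.28 to 0.27 over the libraries left out), as did Cers3 without bulk replicate 2 (-0.14 to 0.45 over the libraries left out). The causes were not tested.

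Leaving out each library in turn, 2 to 5 members were called, 2 to 11 ceramide partner genes, 0 to 2 regulators, and 479 to 1109 genes lower and 1 to 96 higher over the whole table. Fits without a bulk library assume that the lone bulk sample varies like the others. With no filter on low counts 2 regulators were called, and 1660 genes were lower and 258 higher. Genes called higher numbered 10 with library size alone, 188 by the DESeq2 Wald test and 79 after correction for length and GC. Library size alone moved the median log2 fold change of all genes to -0.07, against 0.05 with TMM.

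Title numbers are shared by GFP and bulk replicates 1 and by replicates 2, and the labels do not say what they mark. Differences between replicates 1 and 2 correlated across genes between the groups (Pearson r = 0.474, genes not being independent replicates). GFP replicate 3 has a number of its own, so with this number as a block it did not inform the group difference. In that fit, with 1 residual degree of freedom, 8 members were called lower. Of the ceramide partner genes 24 were lower and 9 higher (33 in all), of the regulators 6 and 4 (10), and of all genes 3652 and 3040. The 3 members added were Aloxe3, Pnpla1 and Abca12. Aloxe3 had a log2 fold change of -1.5 with the block, against -1.47 without GFP replicate 3. With both the block and the correction for length and GC, 8 members were lower, 22 partner genes lower and 9 higher (31), 4 regulators lower and 5 higher (9), and 3042 genes lower and 2966 higher. Each member had 54 or more counts in each library, the fewest being those of Sdr9c7 in sorted cells.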
